A study of Mus musculus with 8 samples.

Results

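A set of 10 genes of glucose breakdown and of the response to low oxygen was followed through the leukocytes of the mouse brain: Slc2a1, Hk2, Pfkl, Aldoa, Gapdh, Pgk1, Pkm, Ldha, Hilpda and Hif1a. They were 10 of the 32285 genes counted, found by symbol, and all 10 were detected. The set was selected on earlier results of these same data, among them the neutrophils of acute colitis against control, so levels by cell type and that contrast are given as a description, without a test. CD45.2-positive cells sorted from perfused brains had been profiled by single-cell RNA sequencing with a 5′ droplet kit, in which molecular barcodes (unique molecular identifiers, UMIs) let each captured transcript be counted once. There were 8 libraries, 1 for each of 4 treatments in 2 genotypes, and none was replicated at the level of the library. Wild-type (WT) mice were C57BL/6J. App NL-G-F mice (App below) carry a humanized amyloid-β sequence with the Swedish, Arctic and Iberian mutations, knocked into the mouse gene, so its own promoter drives it. The labels give an age of 16 weeks throughout, while the study's methods give a younger age and both sexes.

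Control mice drank water. Acute colitis came from 2% dextran sulfate sodium (DSS) in the drinking water for 1 week, and chronic colitis from 3 cycles of 2% DSS for 5 days followed by water for 5 days. Food allergy mice were sensitized with ovalbumin and alum and then given ovalbumin by mouth. An antibody to CD45 was injected before perfusion to mark cells inside vessels, but its label is not part of the counts, so cells of vessels and of tissue cannot be told apart here. Antibody hashtags marked the samples pooled in a library, and cells with 1 hashtag formed 30 hashtag groups, which serve as replicates below. Hashtag groups of a library shared 1 capture. App chronic colitis had more hashtag groups than the mice the study gives for it, and App acute colitis had fewer. The key from hashtags to mice is not given in the sources used here, so whether a group holds more than 1 mouse is not known. P-values over hashtag groups therefore measure the spread between these groups, which may be partly technical, and they are too small where groups share mice.

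Glycolysis turns glucose into pyruvate and lactate in the cytosol. Slc2a1 encodes the glucose transporter GLUT1, Hk2 a hexokinase that traps glucose in the cell, and Pfkl the liver form of phosphofructokinase at the committed step. Aldoa, Gapdh, Pgk1 and Pkm encode aldolase, glyceraldehyde-3-phosphate dehydrogenase, phosphoglycerate kinase and pyruvate kinase of the later steps, and Ldha a lactate dehydrogenase subunit that reduces pyruvate. Hif1a encodes the oxygen-regulated subunit of hypoxia-inducible factor, which is controlled largely at the protein level, and Hilpda a lipid droplet protein known as a target of that factor. Neutrophils have few mitochondria and draw most of their energy from glycolysis.

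Hypoxia-inducible factor binds DNA at a short core, and 5 promoters are shown so that 1 form of it, ACGTG (on the other strand it reads CACGT), can be seen where it stands. In RefSeq promoters of GRCm38.p6, the 250 bases before the start held this form on either strand in at least 1 promoter of 8 of the 10 genes, against 18.5% of 27025 genes. The form GCGTG, which in reverse is CACGC and was searched for after the first result was seen, was in 5 of the 10, among them Gapdh and Pfkl, which lacked the first form, and in 30.9% of all genes. Either form was in 10 of the 10 and in 41.5% of all genes. Counted by promoter the first form was in 9 of 15 for these genes and 16.6% of all 32851, with overlapping matches counted as 1. The set was put together partly as hypoxia genes, so the share is a description of it, and a match is not a binding site. The windows of Ldha, Hk2, Pgk1 and Hif1a, with 3, 2, 2 and 2 matches to ACGTG, and that of Gapdh, with 0, follow 5′ to 3′ with each such match in capitals and the second form left in lower case. None of these 5 windows overlapped an exon of the GENCODE vM21 annotation.
Ldha, chr7:46845554-46845803, plus strand: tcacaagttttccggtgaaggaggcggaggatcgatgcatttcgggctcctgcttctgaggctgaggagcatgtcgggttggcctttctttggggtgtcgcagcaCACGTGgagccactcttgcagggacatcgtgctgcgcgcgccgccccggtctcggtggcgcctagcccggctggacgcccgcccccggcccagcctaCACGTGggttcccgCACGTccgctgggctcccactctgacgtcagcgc
Hk2, chr6:82774455-82774704, minus strand: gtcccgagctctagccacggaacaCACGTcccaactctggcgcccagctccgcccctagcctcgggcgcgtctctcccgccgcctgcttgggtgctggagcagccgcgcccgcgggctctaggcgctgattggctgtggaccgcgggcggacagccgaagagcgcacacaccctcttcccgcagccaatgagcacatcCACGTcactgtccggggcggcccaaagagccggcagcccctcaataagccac
Pgk1, chrX:106186850-106187099, plus strand: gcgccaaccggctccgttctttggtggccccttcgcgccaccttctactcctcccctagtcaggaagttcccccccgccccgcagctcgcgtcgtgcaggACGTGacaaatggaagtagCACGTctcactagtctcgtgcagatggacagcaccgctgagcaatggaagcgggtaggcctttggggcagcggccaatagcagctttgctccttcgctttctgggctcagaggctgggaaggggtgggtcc
Hif1a, chr12:73907617-73907866, plus strand: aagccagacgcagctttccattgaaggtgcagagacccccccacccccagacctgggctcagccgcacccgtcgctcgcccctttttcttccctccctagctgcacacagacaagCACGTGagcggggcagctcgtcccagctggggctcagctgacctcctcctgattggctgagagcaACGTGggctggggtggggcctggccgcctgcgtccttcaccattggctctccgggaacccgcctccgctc
Gapdh, chr6:125165774-125166023, minus strand: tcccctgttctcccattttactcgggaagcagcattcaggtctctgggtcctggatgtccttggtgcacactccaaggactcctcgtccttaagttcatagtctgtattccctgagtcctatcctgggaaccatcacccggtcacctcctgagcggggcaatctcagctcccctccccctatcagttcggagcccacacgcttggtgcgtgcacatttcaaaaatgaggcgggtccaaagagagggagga

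By GENCODE vM21 (GRCm38), Hilpda spans chr6:29272488-29275446 on the plus strand and Gapdh chr6:125161715-125166467 on the minus strand. Ldha spans chr7:46841475-46855627 and Hif1a chr12:73901375-73947530, both on the plus strand. Several of these transcripts are closely matched by other genes, so their counts may be uncertain where a read could come from more than 1 gene. The shares below are over whole transcripts, while the kit was a 5′ one, and the part read was not examined by itself. Of all stretches of 60 bases in the longest Gapdh transcript, 81.6% also occurred in transcripts of other annotated genes, 167 genes in all. The share was 67.8% for Pgk1, 28.0% for Pkm, 10.4% for Ldha, 7.18% for Aldoa, 6.62% for Hif1a and 1.44% for Slc2a1. Hk2, Pfkl and Hilpda had no such stretch. Whether the matching genes were among the genes counted was not checked. The symbol Aldoa stood for 2 gene identifiers, summed in levels, of which the main one held 99.9% of the UMIs.

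The libraries gave 50088 cells, 4874 to 7199 per library, with 25616824 to 54618574 UMIs in cells and a median of 2777 to 4130 UMIs per cell. Clusters were named from marker lists as 20 cell types, and 42276 cells passed the marker gate. Each pair of libraries shared 34 to 72 cell barcodes. All 12 neutrophil markers were detected in both neutrophil clusters. Hashtag groups fell into a low and a high set by the summed CPM (counts per 1e6 UMIs of the same cells) of immediate-early genes such as Fos and Jun in their T cells, 629 to 1668 CPM in 14 groups and 3157 to 5884 CPM in 16 groups. In control and chronic colitis hashtags 4 and 5 formed the low set and hashtags 6 and 7 the high set, and in acute colitis and food allergy it was the reverse, so a set is also a pair of hashtags. The sets were found in the data, and values within a set are given without a test between sets.

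Across cell types, the 10 genes together were highest in the neutrophil lineage and lowest in plasma cells and erythroid cells. Their summed level was 5035 ± 862 CPM in neutrophil precursors (SD, n = 18 hashtag groups) and 4969 ± 1534 CPM in neutrophils (n = 23), a gap smaller than their spread. Group 2 innate lymphoid cells (ILC2) followed at 4118 ± 1100 CPM (n = 26). Basophils, at 3852 ± 517 CPM (n = 6), and monocytes, at 3623 ± 773 CPM (n = 15), came next, and these neighbours overlapped as well. Plasma cells were at 673 ± 206 CPM (n = 16) and erythroid cells at 484 ± 356 CPM (n = 3). Mast cells had 2 hashtag groups, at 4049 and 4942 CPM, and were left out of the order of types. Neutrophils held 16.3% of the UMIs of gated cells, and 35.7% of those of Pkm and 31.8% of those of Hilpda. ILC2 held 4.51% of all UMIs and 35.8% of those of Hilpda.

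The entry steps did not follow 1 order of cell types. Slc2a1 was nearly level among its leading types, with 31.5 ± 12.3 CPM in ILC2, 29.9 ± 24.2 CPM in monocytes and 28.3 ± 10.5 CPM in NK cells. Hk2 was highest in basophils, at 44.0 ± 15.8 CPM, beyond the spread of the next type, monocytes, at 22.6 ± 12.8 CPM. It was 1.15 CPM in CD8 T cells, 1.75 in NK cells, 2.29 in CD4 T cells and 2.69 in B cells, and 6.49 in ILC2 and 9.80 in gamma-delta T cells. Pfkl was 72.0 ± 12.05 CPM in progenitors, the highest mean of 18 types, 54.8 ± 10.8 CPM in neutrophil precursors and 13.7 ± 7.68 CPM in neutrophils. The neutrophil mean was the lowest, but plasma cells (15.2 ± 9.51 CPM) and erythroid cells (17.1 ± 3.30 CPM) lay within its spread, and the neutrophil groups with a median of at least 5000 UMIs per cell had a median of 17.2 CPM.

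The enzymes of the later steps, other than Ldha, were led by the neutrophil lineage. Aldoa was at 1097 ± 196 CPM in neutrophil precursors and 1064 ± 235 CPM in neutrophils, with ILC2 within the spread at 1024 ± 85.3 CPM. Gapdh was at 1329 ± 466 CPM and 1156 ± 517 CPM in these lineage stages, followed by monocytes at 921 ± 363 CPM. Pgk1 was higher in precursors, at 450 ± 64.1 CPM, than in neutrophils, at 297 ± 82.6 CPM, beyond the spread. For Pkm the order of these stages was turned, with 1280 ± 443 CPM in neutrophils and 1107 ± 127 CPM in precursors, which overlapped. Ldha led in ILC2 at 1638 ± 878 CPM, then basophils at 1004 ± 275 CPM, and was 68.4 ± 29.4 CPM in plasma cells. The 2 mast cell groups had 1897 and 3146 CPM of Ldha.

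The hypoxia genes stood apart from this order. Hilpda led in ILC2 at 304 ± 273 CPM, then in neutrophils at 130 ± 144 CPM and gamma-delta T cells at 94.5 ± 93.0 CPM, with a spread about as large as the mean in each. In ILC2 the mean pools 10 hashtag groups of the low immediate-early set, at 28.7 to 163 CPM (median 52.0), and 16 of the high set, at 238 to 1144 CPM (median 343), with no overlap. How many of all genes lay apart between the sets in ILC2 was not counted. Hilpda was 11.1 ± 6.51 CPM in neutrophil precursors. The Hif1a transcript led in CD4 T cells at 193 ± 78.7 CPM and in ILC2 at 149 ± 106 CPM, and was 57.5 ± 19.4 CPM in neutrophils. Between the highest and the lowest type Hilpda differed 131-fold and Pfkl 5.25-fold, the widest and the narrowest range of the 9 genes other than Hk2, which had 0 CPM in erythroid cells. The leading type of each of the 10 genes stayed the same without the marker gate, and of 9 of 10 when mitochondrial, ribosomal and immediate-early genes were left out of the total.

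**Figure D1:**
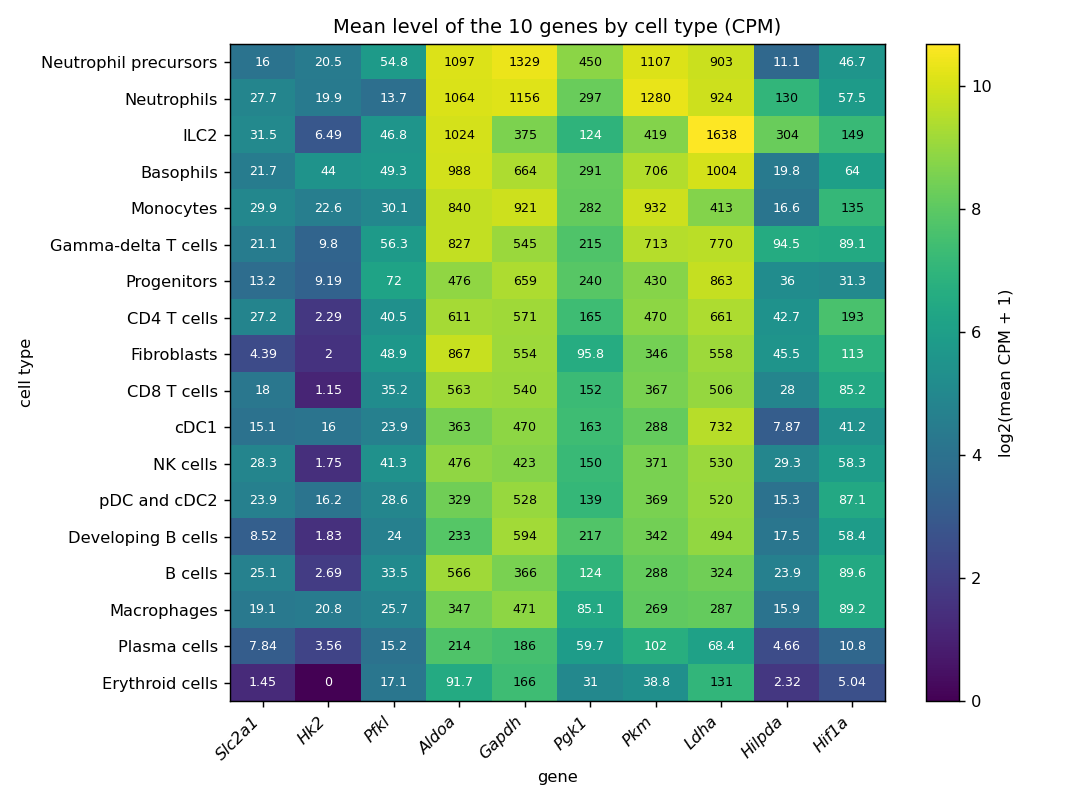
Mean level over hashtag groups of each gene (columns) in the 18 cell types with at least 3 hashtag groups (rows, ordered by the summed level); numbers are CPM and colour is log2 of (mean CPM + 1). The later enzymes are brightest in the top rows, Ldha and Hilpda peak in ILC2 at 1638 and 304 CPM, and Pfkl has its lowest mean in neutrophils at 13.7 CPM, within the spread of plasma and erythroid cells.

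The genes whose levels followed these most closely over the 18 types were sought among 10888 genes with at least 20 CPM in a type, by Pearson's r of log2(CPM + 10), as a description without a test, since the types share libraries. Slc2a1 was most like Cd53 (r = 0.914), Rgs14 (0.903) and Sema4d (0.896). Ldha was most like Gpd2 (0.861), which encodes mitochondrial glycerol-3-phosphate dehydrogenase, Prkd3 (0.861) and Gnai3 (0.853). Hilpda was most like Arl5b (0.923), Cdk11b (0.876) and Gm28592 (0.866). Of wider lists, 22 of 31 further glycolysis genes, 7 of 8 regulators of hypoxia-inducible factor and 17 of 22 further hypoxia targets reached 20 CPM in a type. The glycolysis genes led most often in neutrophils and in erythroid cells, 5 genes each, and the hypoxia targets in fibroblasts, 8 genes.

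Among neutrophils, Hilpda was the gene of the 10 that set the hashtag groups apart, and how many of all genes did so was not counted. Hilpda was 0 to 9.92 CPM in the 7 groups of the low immediate-early set and 41.8 to 638 CPM in the 16 groups of the high set, with no overlap. In App control it was 0 CPM in both hashtag groups 4 and 5, and 164 and 251 CPM in groups 6 and 7. The split was repeated in App chronic colitis, with 1.51 and 0 CPM in groups 4 and 5, and 188 and 171 CPM in groups 6 and 7. In App food allergy the hashtags were turned as the sets were, with 111 and 163 CPM in groups 4 and 5, and 0 and 1.37 CPM in groups 6 and 7. In App acute colitis groups 4 and 5 had 41.8 and 119 CPM, and group 7, of the low set, 9.92 CPM. The WT libraries had no low-set group with the 20 neutrophils required, so in neutrophils the split could be seen in App libraries alone. WT groups had 327 and 638 CPM in control, against 87.6 and 68.3 CPM after acute and 97.1 and 171 CPM after chronic colitis, and 187 and 185 CPM with food allergy. WT control was above all other groups.

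The 4 groups with no Hilpda UMI allow a level of up to 4.74 to 32.6 CPM, by a limit of 3 UMIs per group that covers counting error only. The ambient profile of the empty droplets held 15.05 to 98.0 CPM of Hilpda, and its estimated share in neutrophils was 0.271% to 10.0% per library. Immediate-early genes in the neutrophils themselves came to 816 to 1455 CPM in the low set and 4724 to 14099 CPM in the high set. Low-set neutrophils lay almost wholly in a cluster led by genes such as Olfm4, Ngp, Ltf and Camp, the last 3 being secondary granule genes, and the high set also held a cluster led by genes such as G0s2, Cxcl2 and Il1b. Hilpda was 20.3 CPM in the first cluster (2775 cells) and 242 CPM in the second (2278 cells), while Ldha was 1103 and 1156 CPM. The part of the immediate-early genes and of these clusters in the Hilpda levels was not tested.

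The other 9 genes overlapped between the sets, and their sum was larger in deeper groups. The 10 genes summed came to 3778 to 5754 CPM in the low set and 3421 to 8819 CPM in the high set. With groups divided at a median of 5000 UMIs per neutrophil, a value set after the data were seen, 11 deeper groups had 4033 to 8819 CPM (median 5857) and 12 shallower groups 3421 to 5846 CPM (median 3811). Ldha had a median of 1130 CPM in the deeper and 690 CPM in the shallower groups, and Slc2a1 40.9 and 11.7 CPM. Hk2 ran the other way, with 11.1 and 24.5 CPM. CPM already divides by the total, so these are changes in the share of transcripts, and the part of depth in them was not tested.

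**Figure D2:**
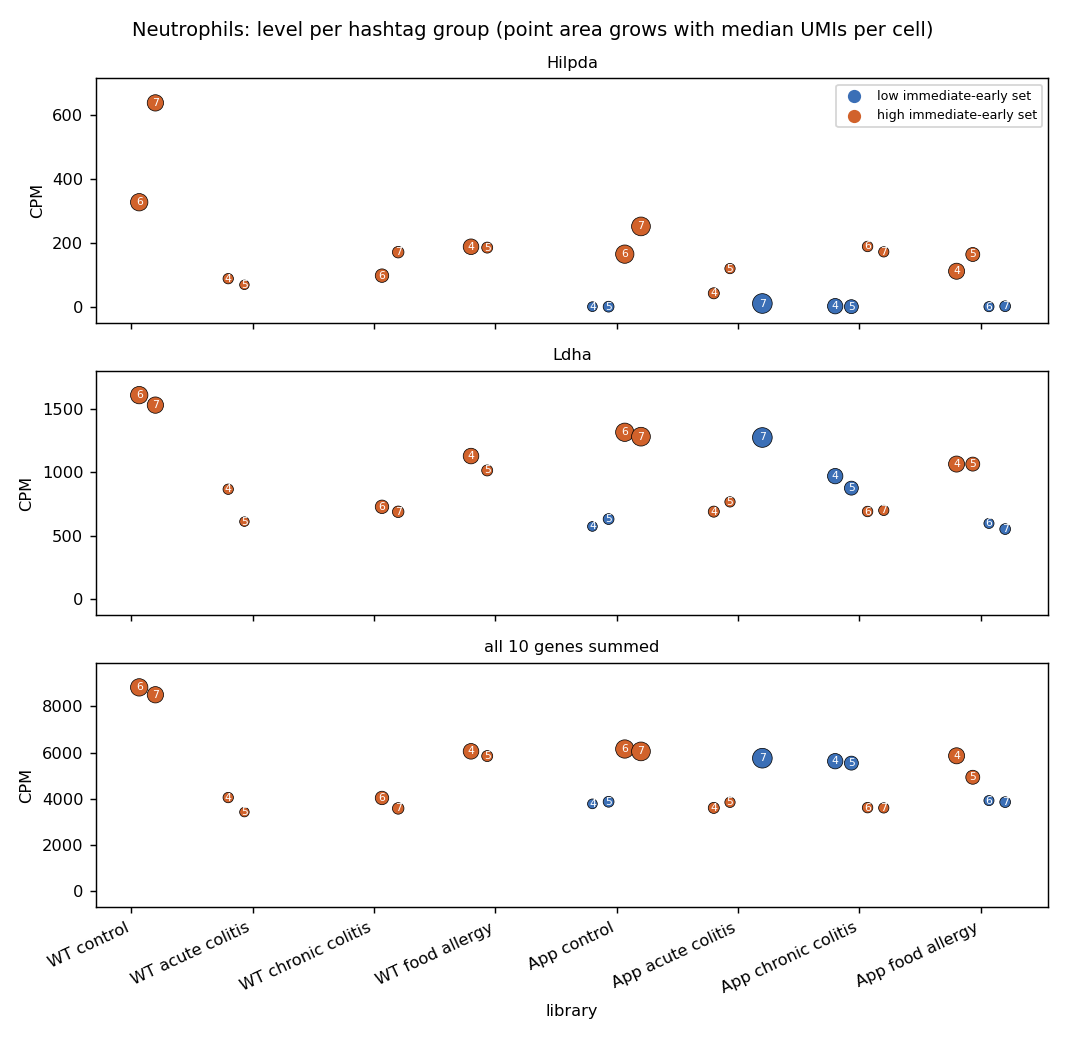
Level in the neutrophils of each hashtag group (CPM, linear axes) of Hilpda, Ldha and all 10 genes summed, by library; the number in a point is its hashtag, colour marks the immediate-early set, and point area grows with the median UMIs per neutrophil. The low-set points of Hilpda lie at 0 to 9.92 CPM, under all high-set points, while large points tend to lie higher for Ldha and the sum.

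In App mice the 10 genes summed came to a like level in the pooled neutrophils of the acute colitis and the control library, but not within the sets, and single genes differed. The pooled sum was 5708 CPM in acute colitis (1311 cells) and 5702 CPM in control (367 cells), a ratio of 1.001 with a 95% counting interval of 0.984 to 1.02. In the low set it was 5754 CPM in acute colitis hashtag group 7 against 3778 and 3869 CPM in control groups 4 and 5, and in the high set 3603 and 3844 CPM in acute colitis groups 4 and 5 against 6152 and 6048 CPM in control groups 6 and 7. Over the library Hilpda was 11.3 against 179 CPM, a ratio of 0.0629 (0.0529 to 0.0746). The mix of the neutrophil clusters differed beside it, with 1232 cells in the cluster led by Olfm4 and 79 in that led by G0s2 in acute colitis, and 205 and 162 in control. Within these clusters Hilpda was 10.1 against 32.6 CPM and 88.1 against 289 CPM. Hk2 was 8.41 against 17.9 CPM (0.469, 0.337 to 0.662), Hif1a 32.0 against 53.4 CPM (0.599, 0.499 to 0.724) and Gapdh 944 against 1167 CPM (0.809, 0.779 to 0.841). Genes on the higher side moved less, with Slc2a1 at 40.3 against 32.3 CPM (1.25, 1.001 to 1.57), Pgk1 at 412 against 352 CPM (1.17, 1.09 to 1.25) and Pkm at 1689 against 1482 CPM (1.14, 1.10 to 1.18). In all 6 of 10 genes were higher and 4 lower, with a median log2 ratio, with 10 CPM added, of 0.09, where all 7620 genes compared had -0.02. The intervals are exact for the counts of 2 libraries and hold no spread between mice.

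Hashtag group 7, of the low set, supplied 1204 of the App acute colitis neutrophils at a median of 12812.5 UMIs per cell, so the library ratio was largely that of 1 group. Within the low set the median log2 ratio of the 10 genes was 0.77, and Ldha was 1277 CPM in this group against 573 and 632 CPM in control groups 4 and 5. Within the high set the median was -0.59, and Ldha was 690 and 767 CPM in acute colitis groups 4 and 5 against 1318 and 1283 CPM in control groups 6 and 7. Without hashtag group 7 it was -0.46. Every one of the 10 genes lay on opposite sides of no change in the 2 sets. Hilpda turned from -3.15 over the library to 0.99 within the low set, where control had no Hilpda UMI, so that value depends on the 10 CPM added and is no bound. Depth changed with the groups, from 2057 and 2875 median UMIs in control groups 4 and 5 to 12812.5 in acute colitis group 7, and from 10883 and 11504.5 in control groups 6 and 7 to 3079 and 2474 in acute colitis groups 4 and 5.

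In WT mice, where only the high set had neutrophil groups, nearly all of the 10 genes were lower in acute colitis. Their sum was 3832 CPM in acute colitis (207 cells) and 8720 CPM in control (217 cells), a ratio of 0.440 (0.422 to 0.457). Hilpda was 89.2 against 435 CPM (0.205, 0.158 to 0.263), Pkm 773 against 2201 CPM (0.351, 0.322 to 0.383), Ldha 793 against 1584 CPM (0.501, 0.458 to 0.547) and Gapdh 1199 against 2530 CPM (0.474, 0.441 to 0.509). Pfkl had 2 UMIs in acute colitis and 53 in control, a ratio of 0.102 (0.0120 to 0.386). The exception was Hk2, at 30.6 against 8.40 CPM (3.64, 1.86 to 7.27). Of the 10 genes 9 were lower, with a median log2 ratio of -1.05 where all 4171 genes had 0.05. Median depth was 2298 UMIs per neutrophil in acute colitis and 8893 in control. The estimated ambient share in neutrophils was 10.0% in acute colitis and 0.653% in control. Neither difference can be told apart from the treatment.

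**Figure D3:**
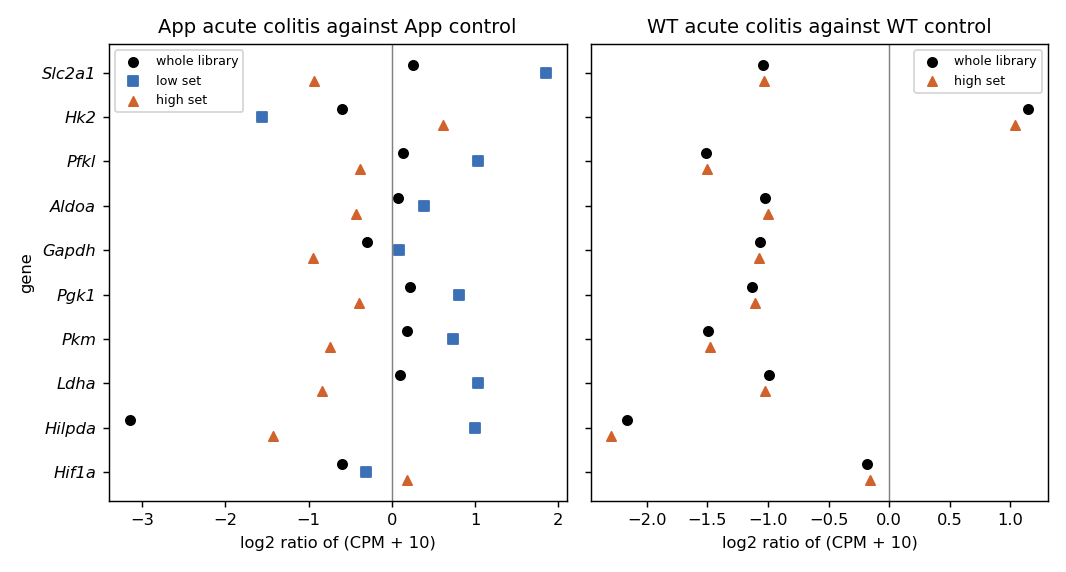
Log2 ratio of (CPM + 10), acute colitis to control, in neutrophils for each gene, App on the left and WT on the right, for the whole library (black circles), the low immediate-early set (blue squares) and the high set (orange triangles); the grey line marks no difference. In App mice the squares and triangles of all 10 genes fall on opposite sides of the line, and in WT mice 9 of 10 genes lie to its left.

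Other glycolysis genes were divided in App neutrophils and mostly lower in WT neutrophils. Of 31, 17 had at least 50 UMIs in the App contrast, 9 higher and 8 lower, and 15 in the WT contrast, 2 higher and 13 lower. The 4 most abundant genes of the wider lists in neutrophils were Gpi1 (1455 CPM), encoding glucose-6-phosphate isomerase, Pgam1 (469 CPM), a phosphoglycerate mutase, Slc16a3 (367 CPM), a lactate exporter, and Mpc2 (291 CPM), of the mitochondrial pyruvate carrier. Their log2 ratios were 0.39, 0.52, -0.64 and -0.08 in App mice and -1.25, -1.21, -0.86 and -0.31 in WT mice. The widest App ratios were those of Ero1l (-0.81), Ndrg1 (-0.71), Cited2 (-0.64) and Slc16a3. Of the 22 further hypoxia targets 16 had 50 UMIs in App mice, 6 higher and 10 lower, and 12 in WT mice, 5 higher and 7 lower. Of the 8 regulators, 6 had 50 UMIs in App mice, 4 higher and 2 lower, and 3 in WT mice, 1 higher and 2 lower.

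Comparisons other than acute colitis against control in neutrophils were tested with edgeR's quasi-likelihood test on UMIs summed per hashtag group. Treatment effects were averaged over the genotypes, and p-values were adjusted over all genes tested. The treatment comparisons share their control groups, in neutrophils also with the contrast left untested. The genes were chosen with earlier results of these data known, so the p-values are not independent of that choice. In neutrophils of chronic colitis against control (6 against 6 groups), 0 of the 10 genes passed an edgeR adjusted p of 0.05, where 0.222% of 6302 genes did, and DESeq2 called 0. At an unadjusted p under 0.05 there were 5, and 689 of all 6302 genes, with log2 folds of -0.74 ± 0.23 (SE) for Gapdh, -0.68 ± 0.29 for Ldha, -0.66 ± 0.27 for Pkm, -0.84 ± 0.34 for Pfkl and -1.12 ± 0.51 for Slc2a1. In the same order these folds were -0.25, -0.25, 0.03, -0.52 and -0.22 in App and -1.22, -1.12, -1.35, -1.16 and -2.02 in WT. None of these differences between genotypes passed by edgeR interaction. Median depth per neutrophil, control and then chronic colitis, was 8893 and 5080 UMIs in WT and 5473 and 4182.5 in App. Its part was not tested. The median of the 10 genes was -0.67, where all genes had 0.05. For Ldha, WT control groups had 1612 and 1533 CPM against 729 and 689 CPM in chronic colitis, with no overlap, and App control 573, 632, 1318 and 1283 CPM against 971, 876, 691 and 700 CPM, which overlapped.

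In neutrophils of food allergy (6 groups), 0 of the 10 genes passed, 0 had an unadjusted p under 0.05 and DESeq2 called 0. Over all genes edgeR called 0 of 6302 (0%), with 358 at an unadjusted p under 0.05, and DESeq2 called 7. The median of the 10 genes was -0.29, where all genes had 0.02. WT control neutrophils had more Gapdh, 2595 and 2423 CPM, than WT food allergy neutrophils, 1737 and 1693 CPM. App groups overlapped, at 808 to 1236 CPM in control and 867 to 1092 CPM in food allergy.

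Of the 4 cell types tested, monocytes held all the calls of these genes by treatment when averaged over the genotypes. In acute colitis (3 groups against 5 of control), 4 of the 10 genes fell and 0 rose, where edgeR called 2.68% of 6034 genes. Gapdh was 1587 and 1296 CPM in WT control and 1088 and 1157 CPM in WT acute colitis, and 662, 851 and 772 CPM in App control and 253 CPM in the 1 App acute colitis group. Acute colitis lay below control within each genotype, and its log2 fold was -1.05 ± 0.17 (SE; edgeR adjusted p = 0.00429). Pkm went from 1261 and 1143 CPM to 781 and 769 CPM in WT, and from 902, 1007 and 944 CPM to 556 CPM in App (-0.77 ± 0.14, edgeR adjusted p = 0.00868). Ldha went from 609 and 585 CPM to 297 and 419 CPM in WT, and from 284, 520 and 463 CPM to 194 CPM in App (-1.04 ± 0.23, edgeR adjusted p = 0.0254). Pgk1 went from 363 and 310 CPM to 255 and 204 CPM in WT, and from 284, 279 and 288 CPM to 152 CPM in App (-0.80 ± 0.18, edgeR adjusted p = 0.0263). The median of the 10 genes was -0.84, where all genes had -0.05, and Hk2 (0.86 ± 0.54) and Hilpda (0.11 ± 0.53) did not pass. Over the fits that each left out a group, edgeR called 28 to 559 of all genes. With at least 50 cells per group this comparison could not be tested, and the part of depth in these folds was not tested. The App acute colitis group held 27 monocytes. Without it 1 of the 10 genes passed, without WT acute colitis hashtag group 4, 2 passed, and in App and in WT alone 0 and 1 did.

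In chronic colitis (3 groups), 2 of the 10 genes fell in monocytes, where edgeR called 5.35% of genes. Hif1a was 184 and 270 CPM in WT control and 72.2 CPM in chronic colitis, and 58.2, 201 and 198 CPM in App control and 56.0 and 114 CPM in chronic colitis, with overlap in App (-1.39 ± 0.31, edgeR adjusted p = 0.0172). Gapdh was 1074 CPM in WT and 485 and 567 CPM in App chronic colitis, below control in each genotype (-0.52 ± 0.14, edgeR adjusted p = 0.0474). None of the 10 passed when App or WT chronic colitis hashtag group 6 or WT control hashtag group 7 was left out (0 in each), 5 passed without App control hashtag group 5, and 1 passed without App chronic colitis hashtag group 7, App control hashtag group 6 or 7, WT control hashtag group 6, either WT acute colitis group, or any food allergy group. With a group left out, edgeR called 1 to 767 of all genes. In WT, with 1 chronic colitis group, Hif1a was at -1.67 and Hk2 at 2.15 on the log2 scale, against -1.11 and -0.84 in App. App control hashtag group 5 was of the low immediate-early set. In food allergy (4 groups) 0 of 10 passed, where edgeR called 0.447%, 3 had an unadjusted p under 0.05 (Slc2a1 -1.28, Hilpda -1.45 and Hif1a -0.61), as had 652 of all 6034 genes, and DESeq2 called 0. In WT alone Hif1a and Slc2a1 passed, at -1.33 and -1.92, where App had 0.12 and -0.63. Calls over all genes in this comparison ran from 0 to 314 over the alternatives other than leaving out a group. WT alone was among these, and its own count over all genes is not given here. The highest values in monocytes of WT food allergy were 1272 CPM for Gapdh and 439 CPM for Ldha, under both WT control groups. App food allergy groups had 711 and 793 CPM of Gapdh, within the App control range of 662 to 851 CPM. The log2 folds of Gapdh and Ldha were 0.03 and 0.12 in App and -0.22 and -0.54 in WT.

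**Figure D4:**
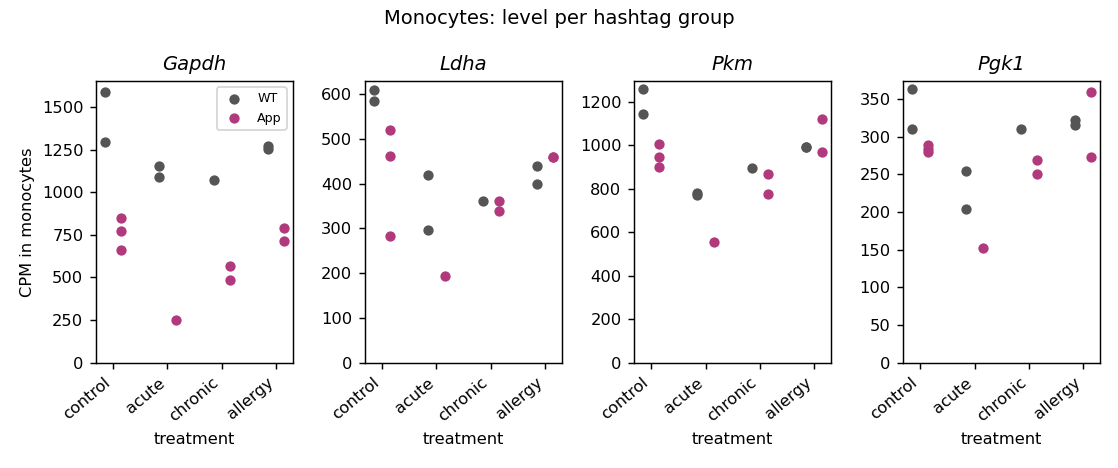
Level in monocytes (CPM, axes from 0) of Gapdh, Ldha, Pkm and Pgk1 by treatment; each point is a hashtag group, grey for WT and magenta for App. In acute colitis the 2 WT points and the 1 App point lie below the control points of their genotype for all of these genes, with App at 253 CPM for Gapdh and 194 CPM for Ldha.

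In B cells and CD4 T cells, averaged over the genotypes, no treatment gave a call in the set, and other lymphocytes were not tested. In WT alone 1 gene passed in each of 2 comparisons, Slc2a1 in B cells of chronic colitis, at -1.27 on the log2 scale (edgeR adjusted p = 0.0336), and Gapdh in CD4 T cells of acute colitis, at 0.71 (edgeR adjusted p = 0.00907). App had -0.09 and -0.24. Calls over all genes in these comparisons ran from 3 to 401 and from 14 to 222 over the alternatives other than leaving out a group. WT alone was among these, and its own counts over all genes are not given here. In B cells 0 of 9 tested genes passed with acute or chronic colitis or food allergy, where edgeR called 0.756%, 2.01% and 0.256% of 7800 genes. At an unadjusted p under 0.05 there were 0, 1 and 1, where 557, 1130 and 662 of all genes were. Both were Slc2a1, with log2 folds of -0.68 ± 0.23 in chronic colitis and -0.68 ± 0.29 in food allergy, and DESeq2 called 0 in each. In CD4 T cells 0 of 9 passed, where edgeR called 1.56%, 1.4% and 1.32% of 7125 genes, with 0, 0 and 1 at an unadjusted p under 0.05 (Pkm in food allergy, 0.19 ± 0.09), where 710, 600 and 675 of all genes were, and 0 by DESeq2. Hk2 was too low to be tested in either type. A p that misses the threshold does not show that levels were alike: the SE of the Ldha fold was 0.10 to 0.12 over these comparisons and that of the Hilpda fold 0.28 to 0.34.

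Of the 10 genes, Gapdh was the one that separated the genotypes. It was lower in App than in WT in 15 of 15 cell types, with a ratio of means of 0.416 to 0.597 (median 0.500), and the groups did not overlap in 8 types. How many of all genes lay apart in these types, as Gapdh did, was not counted. In B cells App groups had 242 ± 46.2 CPM (SD, n = 15; 154 to 327) and WT groups 521 ± 111 CPM (n = 12; 406 to 700). In monocytes it was 637 ± 197 CPM (n = 8) against 1247 ± 174 CPM (n = 7), with no overlap either. CD4 T cells had 395 ± 61.7 CPM and 791 ± 200 CPM, and neutrophils 912 ± 212 CPM and 1614 ± 617 CPM, both with overlap. The log2 fold by edgeR was -1.19 ± 0.11 in monocytes (edgeR adjusted p = 7.5e-05), -1.09 ± 0.10 in B cells (4.02e-08) and -0.98 ± 0.08 in CD4 T cells (2.71e-10), where 0.265%, 1.4% and 1.91% of genes were called, and Gapdh was the 1 gene of the set called in each. In neutrophils it was -0.60 ± 0.16 (edgeR adjusted p = 0.0614), where 1.43% of genes were called and 0 of the 10, with 3 at an unadjusted p under 0.05, where 1129 of all 6302 genes were, and 1 by DESeq2.

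The ratio held its direction in each treatment. With the treatments in the order control, acute, chronic and allergy, it was 0.581, 0.325, 0.542 and 0.458 in B cells, and in monocytes 0.528, 0.225, 0.490 and 0.596. In CD4 T cells it was 0.544, 0.315, 0.647 and 0.519, and in neutrophils 0.416, 0.623, 0.8294 and 0.555. Within each immediate-early set, low and then high, it was 0.480 and 0.475 in B cells and 0.506 and 0.513 in CD4 T cells. Taking each library as 1 value, the exact two-sided permutation test of 4 App against 4 WT libraries gave p = 0.0286 in each of these 4 types, the smallest that 70 splits allow, and 0.229 after adjustment over 40 tests. Genotype and library were not repeated independently, since each condition was 1 library. The study purchased its WT mice from Jackson Laboratory Japan and obtained App mice from RIKEN, so genotype and source cannot be told apart. Empty droplets had 442 to 560 CPM of Gapdh in App and 578 to 878 CPM in WT libraries.

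**Figure D5:**
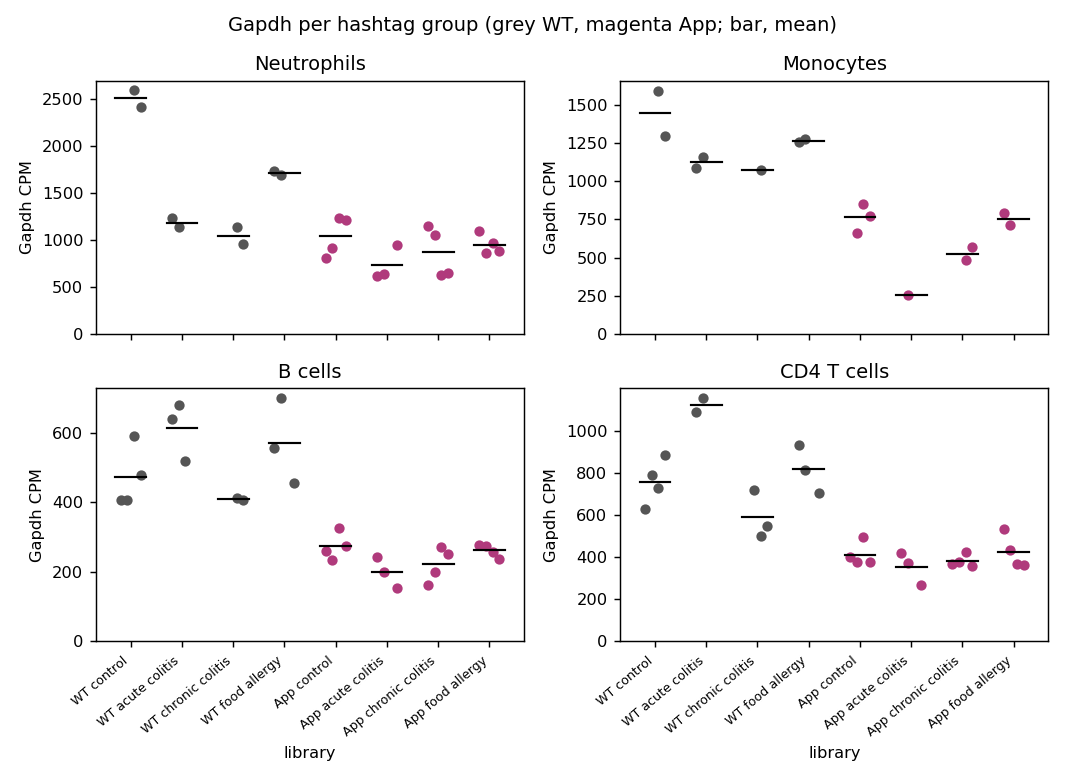
Gapdh level (CPM, axes from 0) of each hashtag group by library in neutrophils, monocytes, B cells and CD4 T cells; grey points are WT, magenta points App, and bars are library means. In monocytes and B cells all magenta points lie below all grey ones, and in neutrophils WT acute and chronic colitis reach down to the App range.

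Eno1, the enolase of the step after phosphoglycerate mutase, was the only gene of the wider lists that edgeR called by genotype, and it was called in all 4 types. It was lower in App in 15 of 15 types, at 0.219 to 0.565 of WT (median 0.449), and did not overlap in 4, again without a count over all genes. Its log2 fold was -0.61 ± 0.13 in neutrophils (edgeR adjusted p = 0.0254), -1.14 ± 0.11 in monocytes (0.000112), -1.13 ± 0.09 in B cells (3.86e-09) and -1.10 ± 0.08 in CD4 T cells (2.79e-11). In neutrophils it passed in 16 of 23 fits that left out a hashtag group. It did not pass without either WT acute colitis group, WT chronic colitis group 6, WT control group 6 or 7, or WT food allergy group 4 or 5, with adjusted p up to 0.0897 by edgeR. Eno1b, a gene similar in name, was nearer to level, with a median ratio of 0.909, though lower in App in 13 of 15 types. Gapdh and Eno1 shared most of their transcript sequence with other genes, 81.6% and 69.5% of 60-base stretches, and so did Pgk1, at 67.8%, whose median ratio was 0.981. The part of reads placed on near-identical genes was not tested. Among genes ordered by p, Gapdh ranked 1 and Eno1 2 in monocytes, 5 and 4 in B cells, 11 and 5 in CD4 T cells, and 114 and 30 in neutrophils. Ribosomal protein genes were 7 of the 12 genes called higher in App in monocytes and 10 of 69 in B cells. They were 29 of 101 in CD4 T cells and 0 of 27 in neutrophils, and 0 of those called lower in each type.

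The remaining genes gave no call by genotype. The median ratio of App to WT over 15 types was 0.961 for Ldha, 0.984 for Pkm, 1.03 for Aldoa, 1.08 for Hif1a, 0.971 for Pfkl and 0.837 for Hk2, and none of these lay apart in any type. Slc2a1 was lower in App in 13 of 15 types, with a median ratio of 0.766, and Hilpda in 14 of 15, with 0.633, but groups overlapped in every type. Over libraries Hilpda in neutrophils differed by -2.01 on the log2 scale, with an exact permutation p of 0.0286 (0.229 adjusted), and by edgeR by -1.03 ± 0.71 (edgeR adjusted p = 0.476). The low-set groups stood in App libraries alone, which moves with this difference.

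Few genes of the wider lists passed a test. In monocytes of acute colitis Pfkfb4, a regulator of phosphofructokinase, rose by 1.46 ± 0.35 on the log2 scale (edgeR adjusted p = 0.0341), 1 of 16 glycolysis genes tested. In chronic colitis Hk3, a hexokinase of myeloid cells, rose by 0.94 ± 0.23 (0.02502 by edgeR), Gpi1 fell by 0.65 ± 0.16 (0.02502) and P4ha1, a prolyl hydroxylase of collagen, fell by 1.25 ± 0.31 (0.0278). In CD4 T cells Higd1a, of the mitochondrial inner membrane, rose by 0.43 ± 0.11 in acute colitis (edgeR adjusted p = 0.0266), and Eno1 fell by 0.53 ± 0.11 in chronic colitis (0.00362). In neutrophils Nos2, the inducible nitric oxide synthase, fell by 5.97 ± 1.201 in chronic colitis (0.0455), at low counts. The regulators of hypoxia-inducible factor, of which 3 to 5 were tested per type, gave no edgeR call. Over all genes edgeR called 2.68% and 5.35% in monocytes of acute and chronic colitis. In CD4 T cells it called 1.56% and 1.4%, and in neutrophils of chronic colitis 0.222%. Glycolysis genes and hypoxia targets tested were 16 and 14 in monocytes and neutrophils, and 13 and 11 in CD4 T cells. The named genes are not read as a result about the lists.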

How the data were processed

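CD45.2-positive brain cells of 8 libraries were measured. The authors deposited raw, unfiltered counts of UMIs per gene and barcode, made with Cell Ranger (6.1.2 by the submitters' processing notes, 4 by the file headers) on GRCm38, without normalization. Cells were called where UMIs passed an order-of-magnitude rule (3000 cells expected) or, from 500 UMIs up, where the barcode differed from the ambient RNA of barcode ranks 45000 to 90000 (1000 simulations, false discovery rate 0.01). Cells below 200 genes or above 5% mitochondrial UMIs were dropped. Leiden clusters (2000 variable genes, 30 components, 20 neighbours, resolution 0.5) were built without 81 genes of the lists and named from markers, and 3 clusters with 441 cells stayed unnamed. A gated cell had at least 2 markers of its type and not more than 1 hashtag, so doublets across hashtags (346 to 832 cells per library) were removed and others were not. Hashtag cutoffs lay at the first valley after the background mode, with a minimum of 50 counts, a rule that replaced another after its result had been seen. Hashtag groups needed 20 cells and 20000 UMIs of a type. One type mixed plasmacytoid and type 2 dendritic cell markers and is given as pDC and cDC2.

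Summed counts were tested with edgeR 4.0.16 (quasi-likelihood, TMM, filterByExpr, cell means of the 8 conditions, 15 comparisons, Benjamini-Hochberg at 0.05), with DESeq2 1.42.0 as an alternative. SEs are the log2 fold over the square root of F. Ratios of library sums have exact 95% intervals for counting error. The steps were tested on simulated data. Python 3.11.15, scanpy 1.11.5, leidenalg 0.10.2 and R 4.3.3 were used. The genes, lists and tests were chosen with earlier results of these data known. All 10 genes were named, and of the wider lists those past the threshold, the 4 most abundant in neutrophils and the 4 widest App ratios with at least 50 UMIs. The alternatives were other gates, cell calls, mitochondrial limits, scalings, pseudocounts, ambient subtraction, filters, covariates, cell minimums, single genotypes and leaving out each hashtag group. The split by neutrophil cluster, the split by depth, and leaving out groups in monocytes and CD4 T cells were added after the data were seen.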

Additional observations from a re-analysis of the deposited data

Results flagged for a closer look

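Of 100 sets of 4 hashtag groups examined, 5 had 1 group far from the other 3, where chance gives about 1 in 20. In B cells of App chronic colitis, Pgk1 was 69.6 CPM in hashtag group 5 (36 cells) against 137 to 144 CPM at the nearest and farthest of the others, and Hif1a was 116 CPM in hashtag group 4 (75 cells) against 79.5 and 76.6 CPM. In CD4 T cells of App chronic colitis, Pfkl was 67.5 CPM in hashtag group 7 (74 cells) against 48.8 and 47.7 CPM. In neutrophils, Slc2a1 was 47.4 CPM in hashtag group 5 of App chronic colitis (105 cells) against 18.2 and 15.9 CPM, and Aldoa was 1405 CPM in hashtag group 4 of App food allergy (226 cells) against 1099 and 1047 CPM.

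The effect of acute colitis on Gapdh in CD4 T cells differed between the genotypes. It was -0.24 on the log2 scale in App and 0.71 in WT, a difference of -0.95 ± 0.23 (SE; edgeR interaction, adjusted p = 0.0254), the 1 of 104 such differences tested in these genes that passed. In the same comparison 112 of all 7125 genes passed. All 3 App acute colitis groups, at 417, 372 and 270 CPM, were within or below the App control range of 376 to 497 CPM, and both WT acute colitis groups, at 1090 and 1155 CPM, were above the 4 WT control groups, at 626 to 885 CPM.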

How the results depend on the processing

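The App acute colitis contrast in neutrophils depended most on the settings. Its median log2 ratio, 0.09, became 0.77 within the low set, -0.59 within the high set and -0.57 within the cluster led by G0s2, and ranged from -0.46 to 0.17 when each hashtag group was left out, with the lowest value without App acute colitis hashtag group 7. Hilpda turned to 0.15 as a mean over hashtag groups and 0.99 within the low set, and Hif1a to 0.049 as a mean over hashtag groups, 0.18 within the high set and 0.17 within that cluster, with -0.64 to 0.20 when a group was left out, the highest without hashtag group 7. In WT the median ranged from -1.23 to -1.01. The cause of these changes was not tested.

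Of the calls, neutrophils by genotype had 1 gene with DESeq2 and 0 to 1 when a group was left out, the 1 without App acute colitis hashtag group 5 or 7. Monocytes of acute colitis had 0 in App alone, 1 in WT alone and 1 to 6 when a group was left out. Monocytes of chronic colitis had 4 without a filter on low counts, 5 with the immediate-early set as a covariate, 7 with at least 50 cells per group, 0 in App alone and 0 to 5 when a group was left out. Monocytes of food allergy had 2 without a filter, 1 with the covariate, 2 in WT alone and 0 to 1 when a group was left out. Calls over all genes moved as well, and their counts in App or WT alone are not given here. With a group left out they were 28 to 559, 1 to 767 and 1 to 306 in monocytes of acute colitis, chronic colitis and food allergy, and 15 to 132 in neutrophils by genotype. In WT alone, B cells of chronic colitis and CD4 T cells of acute colitis had 1 each. With at least 50 cells, monocytes of acute colitis could not be tested. Gapdh by genotype passed in 20 of 20 alternatives in monocytes, 32 of 32 in B cells and 32 of 32 in CD4 T cells, and in 3 of 28 in neutrophils.

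Calls over all genes ranged, over the alternatives other than leaving out a group, from 0 to 91 (neutrophils, chronic colitis), 0 to 40 (food allergy) and 21 to 178 (genotype), against 14, 0 and 90. In monocytes they ranged from 0 to 567, 1 to 789 and 0 to 314 by treatment and 22 to 128 by genotype, against 162, 323, 27 and 16. In B cells it was 3 to 219, 3 to 401, 0 to 114 and 101 to 322, against 59, 157, 20 and 109. In CD4 T cells it was 14 to 222, 11 to 181, 7 to 138 and 105 to 253, against 111, 100, 94 and 136. Depth limits Hk2 and Pfkl, which had few UMIs per group.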
